A study of Mus musculus with 2 samples.

Results

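The largest cluster of olfactory receptor genes in the mouse annotation used here lies on chromosome 2, at chr2:85330779-90292841 of GRCm38, and its chromatin boundaries in olfactory sensory neurons are described below. Its members are the protein-coding genes whose symbol starts with Olfr in GENCODE M21 and that lie in this stretch of 4.96 Mb, from Olfr987 to Olfr1272. That rule took 226 of the 1135 protein-coding Olfr genes of the annotation, or 19.9%, together with 9 of the 7435 boundaries of the list. A further 5 boundaries lie within 500 kb of an end, 3 before the stretch and 2 after it. The rule used gene names and positions and no value of the boundary list. Of the 226 symbols, 9 carry the suffix -ps, which marks a pseudogene by name, although the annotation types these genes as protein-coding.

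The boundaries come from in situ Hi-C, in which DNA ends that lie close together in fixed nuclei are ligated and the ligated pairs are sequenced. The cells were mature olfactory sensory neurons expressing Olfr16, also called MOR23, which cell sorting took from adult MOR23-GFP mice, males and females mixed, with the olfactory epithelium as the tissue. There is 1 group, with 28000 cells in biological replicate 1 and 24400 cells in biological replicate 2, both fixed with 1% formaldehyde, digested with DpnII and otherwise untreated, and the labels give no strain. The authors called boundaries on both replicates combined, so the list holds no value per replicate, the depth is unknown, and every comparison below is a description without a test. The list holds no expression values, so the identity of the sorted cells could not be checked against marker genes. Olfr16 itself lies on another chromosome, and the receptor gene used to sort these cells is therefore not among the 226.

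Olfactory receptors are G-protein-coupled receptors that detect odorants in the cilia of the sensory neurons of the nose. A mature neuron expresses 1 receptor gene from 1 allele, while the other receptor genes are held in silent chromatin and, in these neurons, gather in a few nuclear compartments. The genes lie in tandem clusters that grew by duplication, so neighbours are often close in sequence, and the coding part of a gene lies in a single exon. A chromatin boundary separates neighbouring stretches that contact themselves more than each other, and in mammals many boundaries hold sites for CTCF, a zinc-finger protein at which cohesin loops stop.

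The CTCF consensus, searched on both strands, matched 7 places in the stretch, and the sequence around each is printed because these are the candidate positions for the factor most associated with boundaries. The 7 runs follow in genome order, each written in the direction of its match, with the matched bases in capitals.
chr2:85725926-85725985, plus strand: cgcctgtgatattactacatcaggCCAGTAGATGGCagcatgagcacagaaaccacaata
chr2:85745014-85745073, minus strand: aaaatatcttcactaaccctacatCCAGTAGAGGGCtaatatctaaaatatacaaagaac
chr2:86327403-86327462, minus strand: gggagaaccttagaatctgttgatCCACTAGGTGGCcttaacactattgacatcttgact
chr2:87180833-87180892, minus strand: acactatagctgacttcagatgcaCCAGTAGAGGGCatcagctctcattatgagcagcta
chr2:87429678-87429737, plus strand: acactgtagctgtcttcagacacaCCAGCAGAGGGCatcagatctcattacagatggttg
chr2:88109085-88109144, plus strand: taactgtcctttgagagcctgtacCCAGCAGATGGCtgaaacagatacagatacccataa
chr2:88356452-88356511, plus strand: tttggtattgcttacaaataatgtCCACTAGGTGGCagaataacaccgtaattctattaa
The last of these lies inside a boundary, the one that starts at 88355001. The fourth and the fifth lie in repeat-masked sequence and are 79.0% identical to each other over their 60 bases, and the second is masked as well. The third lies in an exon of Gm13719, a processed pseudogene, and the other 6 are intergenic. The fifth lies 0.573 kb from the start of Olfr1124.

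For comparison, each flank has 1 consensus match inside a boundary. Before the stretch it lies in the boundary at 84890001, and after it in an intron of Ptprj, in the boundary at 90470001.
chr2:84890142-84890201, minus strand: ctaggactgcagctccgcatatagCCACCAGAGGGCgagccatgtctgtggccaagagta
chr2:90474893-90474952, plus strand: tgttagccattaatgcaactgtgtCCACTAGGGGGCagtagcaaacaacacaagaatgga

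In all, the 7 matches amount to 1.41 per Mb of the stretch, against 8 matches (16 per Mb) in the 500 kb before it, 1 match (2.00 per Mb) in the 500 kb after it and 964 (5.29 per Mb) on chromosome 2. Among the 33 receptor clusters described below, this density ranked 13 from the lowest (0 to 24.2 per Mb, median 2.77). GC content, given below, was lower in the stretch than in either flank or on chromosome 2. Its part in the density of matches was not tested. A match was found within 10 kb of 1 of the 9 boundaries inside (11.1%, exact 95% interval 0.281 to 48.2%, which covers counting error only), against 23.1% of all boundaries of the list. The interval spans the genome share, so a difference is not detectable with 9 boundaries. The other 6 matches in the stretch lie 27.6 to 495.3 kb from the nearest boundary. A match is a run of letters and not a measured site of binding. Only exact matches were sought, so a boundary without a match may still hold a CTCF site that departs from the consensus.

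The boundaries inside the stretch carried low strength scores. Each boundary of the list is 5 kb wide and has a class, Strong or Weak, and a score from the authors' caller. Strong boundaries score at least 0.500 and Weak ones lower, with 0.200 the lowest in the list. Inside the stretch 1 of 9 boundaries was Strong (11.1%, exact 95% interval 0.281 to 48.2%), against 55.1% of the 541 other boundaries of chromosome 2 (exact 95% interval 50.8 to 59.3%) and 51.8% of all 7435. The 9 scores ranged between 0.201 and 0.620 with a median of 0.280, whereas the rest of chromosome 2 had a median of 0.554 and the full list 0.520.

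Along the chromosome, the first boundary inside starts at 85560001, is Weak and scored 0.292, and it lies 116.4 kb from the start of Olfr995 and 14.2 kb from that of Olfr996. The boundary at 86355001 scored 0.273 and lies between the starts of Olfr1055, 4.72 kb away, and Olfr1056, 2.47 kb away. It is 1 of 2 boundaries inside that hold receptor coding sequence, since all 939 coding bases of Olfr1056 fall within its 5 kb. The Strong boundary starts at 86855001 and scored 0.620, which places it at rank 3214 of 7435, so it is the highest inside and near the middle of the full list. It is intergenic and lies 3.31 kb from the start of Olfr1095 and 32.2 kb from that of Olfr1097.

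After the Strong boundary come 6 Weak ones. That at 87925001 scored 0.266, between Olfr1154 (19.8 kb) and Olfr1155 (15.1 kb). Next, 88220001 scored 0.280 and holds 918 of the 948 coding bases of Olfr1170, whose start is 3.33 kb away, with Olfr1168 on the other side at 38.1 kb. The boundary at 88355001 scored 0.429, the highest of the Weak ones inside, and is the one with the CTCF consensus match; Olfr1177-ps starts 8.51 kb from it and Olfr1178 27.1 kb. At 88715001 the score was 0.201, rank 7408 of 7435, with Olfr1196 at 10.4 kb and Olfr1197 at 12.4 kb. The last ones inside are 89375001, which scored 0.312 between Olfr1234 (10.1 kb) and Olfr1238 (29.7 kb), and 89905001, which scored 0.240 between Olfr1257 (26.6 kb) and Olfr1258 (17.3 kb). Apart from the Strong one, every boundary inside therefore sits in the lower part of the list, with between 0.377% and 41.5% of all boundaries scoring at or below it.

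**Figure D1:**
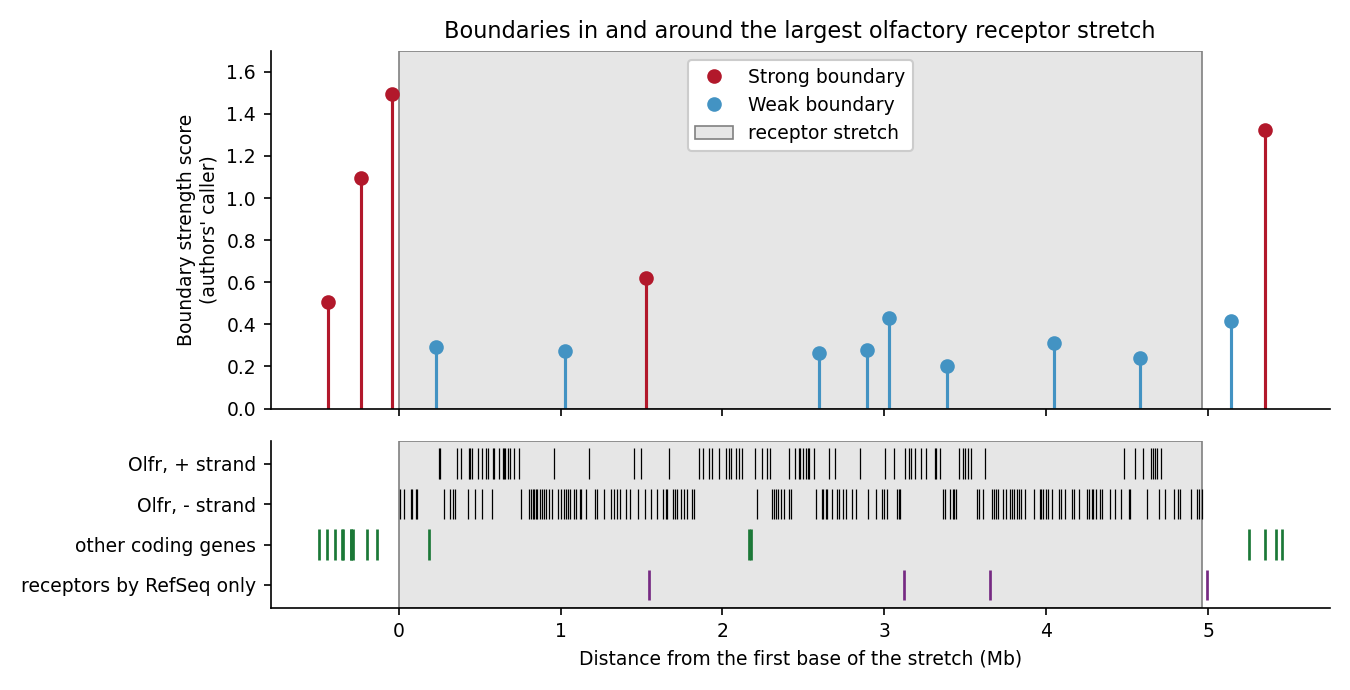
Boundaries and genes in and around the receptor stretch, by distance from its first base (Mb). The upper panel gives each boundary's strength score from the authors' caller, in red for Strong and blue for Weak, with the stretch shaded; the lower panel marks gene starts. The 9 boundaries inside score between 0.201 and 0.620, while the nearest ones outside score 1.49 before the stretch and 0.415 after it.

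The flanks hold 3 boundaries on the left and 2 on the right. These are too few to settle a difference from the stretch or from each other. The exact interval of the Strong share was 29.2 to 100% on the left and 1.26 to 98.7% on the right. Both overlap the 0.281 to 48.2% inside. The lowest scores, 0.505 left and 0.415 right, fell within the range inside (0.201 to 0.620). The higher flank scores lay above it. All 3 boundaries of the left flank were Strong, with scores of 0.505 at 84890001, 1.09 at 85095001 and 1.49 at 85285001. The nearest coding starts to the first and second of these are those of Rtn4rl2, a Nogo receptor family member, at 3.29 kb, and of Aplnr, the apelin receptor, at 36.2 kb. The third lies 40.8 kb before the stretch and 49.3 kb from the start of Olfr987, and 89.8% of all boundaries score at or below it. On the right, the first boundary past the end is Weak with a score of 0.415 and starts at 90470001, 177.2 kb after the stretch, where it overlaps 262 coding bases of Ptprj, a receptor-type tyrosine phosphatase. The coding start nearest to it is that of Olfr1274-ps, 71.3 kb away, which lies beyond the end that the rule sets. The second is Strong, scored 1.32, and contains the start of Nup160, a nuclear pore subunit, at 90675001. A boundary with the score of the outer Strong ones was thus found next to the left end, while the right end is followed by a Weak boundary before the Strong one.

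The middle 300 bases of the Strong boundary inside and of the Strong boundary before the stretch are given as the sequence at the higher-scored positions, with GATC, the site that DpnII cuts, in capitals.
Inside, chr2:86857351-86857650, plus strand: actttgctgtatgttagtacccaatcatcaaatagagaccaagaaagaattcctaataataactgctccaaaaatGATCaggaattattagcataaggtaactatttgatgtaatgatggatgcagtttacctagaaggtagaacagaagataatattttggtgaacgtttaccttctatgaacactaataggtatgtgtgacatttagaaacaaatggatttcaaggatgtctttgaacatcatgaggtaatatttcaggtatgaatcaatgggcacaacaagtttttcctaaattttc
Before the stretch, chr2:85287351-85287650, plus strand: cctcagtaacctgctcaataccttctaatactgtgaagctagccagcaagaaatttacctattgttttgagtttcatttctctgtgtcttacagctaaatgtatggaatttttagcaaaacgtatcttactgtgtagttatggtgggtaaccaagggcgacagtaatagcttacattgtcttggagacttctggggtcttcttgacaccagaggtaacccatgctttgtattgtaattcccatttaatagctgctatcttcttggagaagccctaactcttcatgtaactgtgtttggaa
The run from inside has 32.3% GC and 1 DpnII site, against 39.3% GC and no DpnII site in the run from the flank. Over the whole regions, GC content was 37.0% in the stretch, 45.1% in the left flank, 43.2% in the right flank and 42.1% on chromosome 2. DpnII sites were as dense in the stretch (2.67 per kb) as in the flanks (2.69 and 2.74 per kb) and slightly denser than on chromosome 2 (2.48 per kb). Repeat-masked sequence made up 47.6% of the stretch, against 29.5% of the left flank, 37.7% of the right flank and 32.1% of chromosome 2.

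The 9 boundaries inside and the nearest on either side divide the locus into 10 sub-intervals with very unequal shares of the receptors. The fourth, between the Strong boundary and that at 87925001, is 1065 kb long and holds 48 genes, from Olfr1097 to Olfr1154. It is the only one of the 10 over 1 Mb, a length that 2.99% of all 7415 intervals of the list exceed. The second holds 46 genes over 790 kb (Olfr996 to Olfr1055) and the eighth 33 genes over 655 kb (Olfr1197 to Olfr1234). These 3 together contain 127 of the 226 receptors, or 56.2%.

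The remaining sub-intervals are smaller. The third holds 22 genes over 495 kb (Olfr1056 to Olfr1095), the ninth 20 over 525 kb (Olfr1238 to Olfr1257), the tenth 16 over 560 kb (Olfr1258 to Olfr1272), the seventh 15 over 355 kb (Olfr1178 to Olfr1196) and the fifth 14 over 290 kb (Olfr1155 to Olfr1168). The first (Olfr987 to Olfr995, 270 kb) and the sixth (Olfr1170 to Olfr1177-ps, 130 kb) hold 6 genes each. The first begins 40.8 kb before the stretch and the tenth runs 177.2 kb past it, so both include sequence without members. Receptor density ranged between 22.2 per Mb in the first and 58.2 per Mb in the second, and was 28.6 per Mb in the tenth. Longer sub-intervals held more receptors (Pearson r = 0.942, Spearman rho = 0.948, a description of 10 adjoining pieces of 1 chromosome). The median length was 510 kb, against 260 kb for all intervals of the list, and 9 of the 10 were longer than that median.

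**Figure D2:**
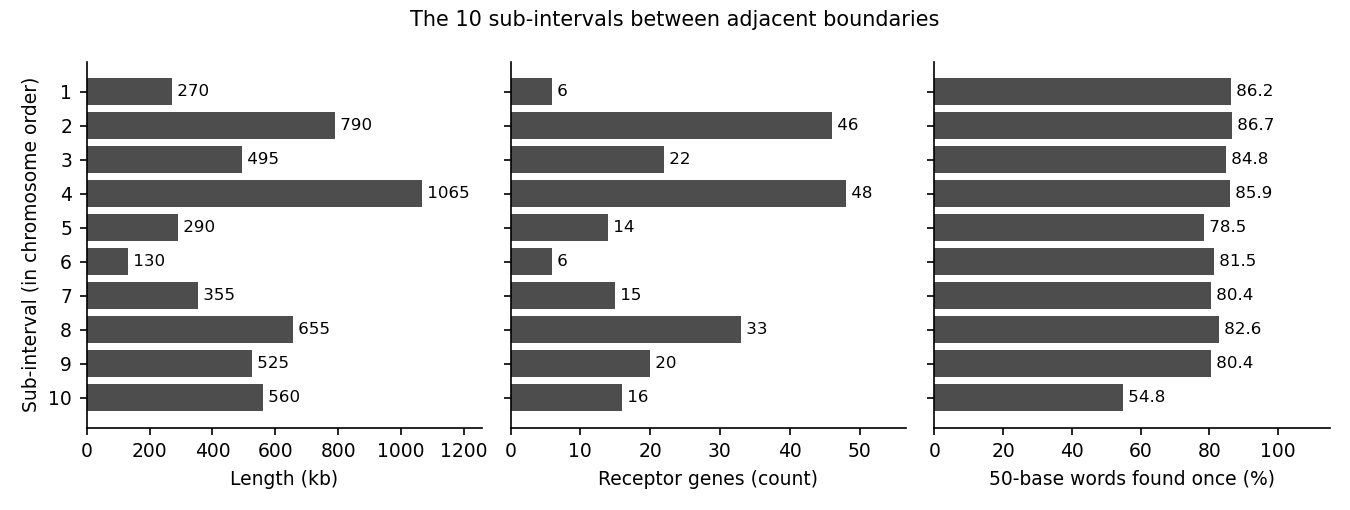
The 10 sub-intervals between adjacent boundaries, in chromosome order, with their length (kb), their number of receptor genes and their share of unique sequence (50-base words found once, %). The fourth is the longest (1065 kb) and holds the most receptors (48), and the tenth has the lowest share of unique sequence (54.8%).

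Strand was not evenly mixed along the stretch. In total 148 receptors (65.5%) lie on the minus strand and 78 on the plus strand. All 6 receptors of the first sub-interval are on the minus strand, as are 19 of 22 in the third, 27 of 33 in the eighth and 18 of 20 in the ninth. The eighth contains an unbroken run of 20 minus-strand genes and the ninth one of 16. Near-equal numbers were found in the second (22 plus, 24 minus) and the fourth (25 plus, 23 minus), and plus-strand genes were the majority in the seventh (10 plus, 5 minus).

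How much of the sequence can be told apart by short reads varied along the locus. Unique sequence, the share of sampled 50-base words that occur once in the genome, was 82.4% in the stretch, 91.9% in the left flank, 73.8% in the right flank and 90.5% on chromosome 2. Sub-intervals 1 to 9 held between 78.5% and 86.7%, and the tenth 54.8%, a value that 1.02% of 3937 intervals of at least 250 kb match or undercut. Within the tenth, the 382.8 kb inside the stretch had 64.8% unique sequence and the 177.2 kb beyond it 33.3%. The boundary at 87925001 had 32.3% unique sequence in its own 5 kb. The part of unique sequence in the number and scores of boundaries was not tested.

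Receptor genes seldom started close to a boundary. The start of 5 of the 226 lay within 10 kb of a boundary interval (2.21%, exact 95% interval 0.722 to 5.09%), against 6.82% of the 909 receptor genes outside the stretch (62 genes, exact 95% interval 5.27 to 8.66%) and 12.5% of all protein-coding genes. Neighbouring genes share boundaries and are not independent, so these intervals cover counting error alone. Such shares, and the distances given next, also depend on how many boundaries there are. The stretch had 1.81 boundaries per Mb, against 2.46 in the other receptor clusters together and 2.91 over the full list. The part of this density in the shares and distances was not tested. The 5 genes were Olfr1056 (2.47 kb), Olfr1095 (3.31 kb), Olfr1170 (3.33 kb), Olfr1055 (4.72 kb) and Olfr1177-ps (8.51 kb). Just outside the limit were Olfr1234 at 10.1 kb and Olfr1196 at 10.4 kb. Seen from the boundaries, 4 of the 9 inside had a coding start within 10 kb (44.4%, exact 95% interval 13.7 to 78.8%), against 27.8% of all boundaries. The interval spans the share of all boundaries, so a difference is not detectable with 9. This share also depends on gene density, which was 45.5 receptors per Mb in the stretch, and its part was not tested.

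The median distance between a receptor start and the nearest boundary was 134.5 kb in the stretch (quartiles 66.6 and 235.5 kb), 94.9 kb for the other 909 receptors (quartiles 46.6 and 178.0 kb) and 57.8 kb for all protein-coding genes. Over all protein-coding genes the quartiles were 25.4 and 105.9 kb, so the receptors of the stretch lay farther out than either comparison set at the median and at each quartile. Within 25 kb of a boundary lay 17 of the 226 (7.52%), within 100 kb 83 (36.7%), and within 200 kb 149 (65.9%). The farthest were 5 neighbours in the fourth sub-interval, Olfr1122 (525.8 kb), Olfr1121 (509.9 kb), Olfr1123 (508.4 kb), Olfr1120 (494.8 kb) and Olfr1124 (494.7 kb). All 5 are on the plus strand and belong to receptor family MOR264. Receptor starts in the stretch followed each other at a median of 19.3 kb (between 1.55 and 135.6 kb).

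**Figure D3:**
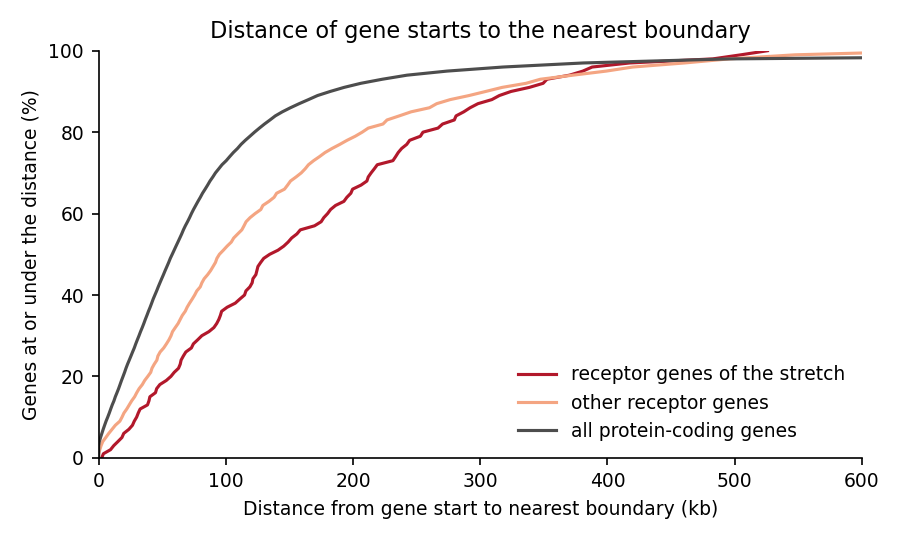
Cumulative share of genes (%) against the distance of their start to the nearest boundary (kb), for the 226 receptor genes of the stretch, the 909 other receptor genes and all protein-coding genes. The curve of the stretch lies below both others at short distances and reaches 50% at 134.5 kb, against 94.9 kb for other receptors and 57.8 kb for all protein-coding genes.

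Few protein-coding genes of other kinds interrupt the receptors, and noncoding genes were not counted. GENCODE lists 6 protein-coding genes inside the stretch whose symbol does not start with Olfr. Of these, Gm13723, Gm13757 and Gm13762 are named Olfr1096, Olfr1182 and Olfr1213 in RefSeq, and were not counted as members because the rule goes by the GENCODE symbol. Gm13723 lies in the fourth sub-interval, 14.8 kb from the Strong boundary, Gm13757 in the seventh at 89.1 kb, and Gm13762 in the eighth at 260.3 kb. The other 3 are no receptors. 4833423E24Rik, named Fads2b in RefSeq and a member of the fatty acid desaturase family, starts in the first sub-interval, 41.0 kb from the boundary at 85560001. Pramel7 and Pramel6, members of the PRAME-like family, of which Pramel7 is known in mouse for a role in the pluripotency of early embryonic cells, lie side by side in the fourth, 427.9 and 418.4 kb from the nearest boundary. None of the 3 thus lies beside a boundary, and the Pramel pair sits among receptors deep inside the longest sub-interval. The stretch also holds 59 pseudogenes whose symbol starts with Olfr, of which 15 are in the second sub-interval, 16 in the third and 12 in the fourth. Receptor pseudogenes under other symbols were not counted.

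The receptors were also grouped by MOR family, a nomenclature based on protein sequence similarity, which RefSeq gives for 220 of the 226 members. They belong to 47 families, of which 33 have at least 2 genes in the stretch. Of these 33, 18 lie in 1 sub-interval each and hold 101 genes, 14 lie in 2 and 1 lies in 3. MOR233 has 17 genes in the eighth sub-interval, MOR264 16 in the fourth and MOR177 13 in the fourth. MOR174 has 17 genes, in the fifth and the sixth, and thus spans the boundary at 88220001. MOR231, with 14 genes, lies in the eighth and ninth, and MOR225, with 11, in the seventh and eighth. MOR232 is the family with genes in 3 sub-intervals, the eighth to the tenth. MOR227 has 6 genes, 5 in the tenth and 1, Olfr1034, in the second, up to 4247 kb apart. Olfr1034 and its neighbour Olfr1036, labelled MOR245, differ in label although their coding sequences are 98.0% identical. Which label is at fault was not examined. The count of 14 families in 2 sub-intervals rests in part on the label of Olfr1034. No test of family against boundary position was made.

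Coding-sequence identity, taken from a global alignment of the longest coding sequence of each gene, was compared between adjacent receptors on either side of a boundary and adjacent receptors in the same sub-interval. The 9 divided pairs had a median identity of 68.6% (57.2 to 97.0%), against 71.4% (58.9 to 98.7%) in the 216 undivided pairs. The ranges overlap over most of their length. Divided pairs were farther apart, with a median of 40.6 kb between starts (12.2 to 135.6 kb), against 18.5 kb in undivided pairs. A wider gap has more room for a boundary, so this follows in part from how a divided pair is defined. The 16 undivided pairs with starts over 40 kb apart had a median identity of 78.7%. A shared MOR family was found in 5 of the 9 divided pairs and in 111 of 205 undivided pairs with both families known. The same strand was shared by 6 of 9 divided and 165 of 216 undivided pairs.

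Among the divided pairs, the most alike were Olfr1196 and Olfr1197 (97.0%, MOR225), which lie on either side of the lowest-scored boundary, followed by Olfr1257 and Olfr1258 (81.5%, MOR232) and Olfr1168 and Olfr1170 (79.8%, MOR174). The least alike were Olfr1177-ps and Olfr1178 (57.2%, MOR174 and MOR225), on either side of the boundary with the CTCF consensus match, then Olfr1154 and Olfr1155 (64.1%, MOR173 and MOR174) and Olfr1095 and Olfr1097 (64.5%, MOR179 and MOR206), on either side of the Strong boundary. Those 3 boundaries scored 0.429, 0.266 and 0.620, and those of the most alike pairs 0.201, 0.240 and 0.280, so the scores overlap. The other 3 divided pairs, at 65.0%, 68.6% and 74.4% identity, had boundaries that scored 0.292, 0.273 and 0.312. A relation between score and identity was not tested. Over all 226 members, the closest relative within the stretch had a median coding identity of 88.2% (64.9 to 98.7%). It lay in the same sub-interval for 184 members (81.4%) and was the adjacent receptor for 90. Closest relatives were also near in position: the gap between their starts was 41.7 kb at the median. The median sub-interval was far longer, at 510 kb. What share boundaries placed elsewhere would give was not tested.

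**Figure D4:**
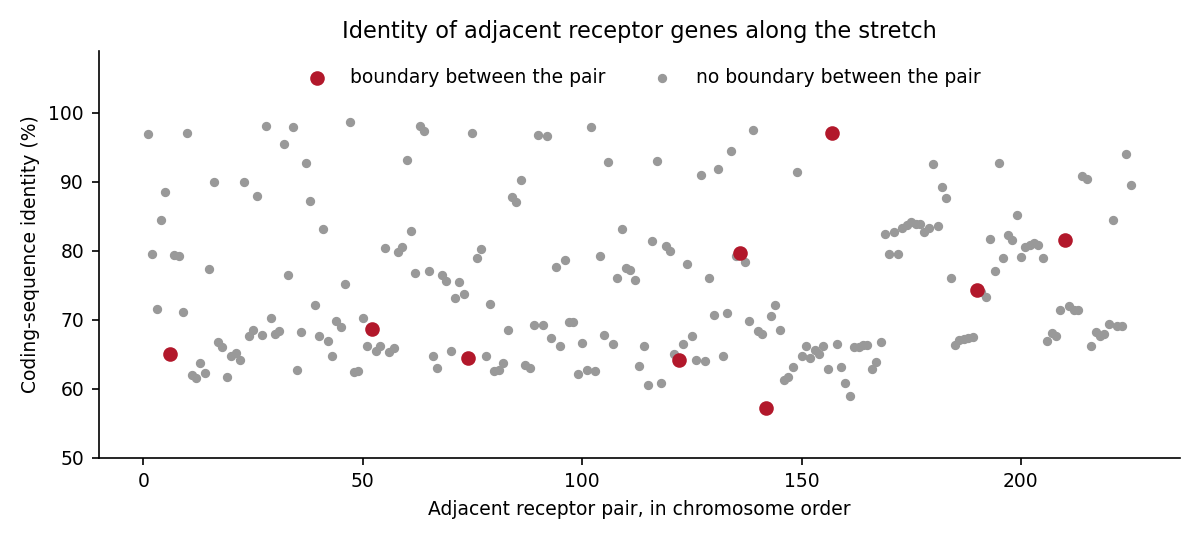
Coding-sequence identity (%) of adjacent receptor genes, along the stretch in chromosome order, 1 point a pair, in red for the 9 pairs with a boundary between them and in grey for the other 216. The medians are 68.6% for divided pairs and 71.4% for undivided pairs, and Olfr1196 and Olfr1197 stand apart among the divided ones at 97.0%.

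The start windows of 2 divided pairs, 250 bases before to 50 after the GENCODE start, are shown because they are the receptor starts beside a boundary on both sides (Olfr1055 and Olfr1056) and the most alike genes on either side of one (Olfr1196 and Olfr1197). Each is written in the direction of its gene. Capitals mark the motifs TAATTA and TAATTG, letters that homeodomain factors such as Lhx2 bind, and CCCNNGGG, the core of the palindrome that Ebf factors bind, on either strand, so that TAATTG also appears as CAATTA.
Olfr1055, chr2:86350235-86350534, minus strand: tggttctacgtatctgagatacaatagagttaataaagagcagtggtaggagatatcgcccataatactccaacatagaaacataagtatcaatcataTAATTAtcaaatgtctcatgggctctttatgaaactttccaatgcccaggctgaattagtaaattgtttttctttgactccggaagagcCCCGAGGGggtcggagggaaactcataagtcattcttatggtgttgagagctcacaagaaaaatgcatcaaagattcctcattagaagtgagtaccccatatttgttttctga
Olfr1056, chr2:86362420-86362719, minus strand: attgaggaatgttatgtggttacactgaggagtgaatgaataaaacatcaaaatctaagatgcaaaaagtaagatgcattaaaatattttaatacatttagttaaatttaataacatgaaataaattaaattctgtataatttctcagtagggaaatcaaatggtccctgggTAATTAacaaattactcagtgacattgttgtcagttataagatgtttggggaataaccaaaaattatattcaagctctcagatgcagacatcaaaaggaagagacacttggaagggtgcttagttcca
Olfr1196, chr2:88704548-88704847, minus strand: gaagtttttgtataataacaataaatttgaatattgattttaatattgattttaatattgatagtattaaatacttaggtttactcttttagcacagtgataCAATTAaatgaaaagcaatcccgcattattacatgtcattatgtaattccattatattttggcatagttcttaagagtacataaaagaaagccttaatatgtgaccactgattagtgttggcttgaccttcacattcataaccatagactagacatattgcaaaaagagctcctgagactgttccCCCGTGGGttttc
Olfr1197, chr2:88732317-88732616, minus strand: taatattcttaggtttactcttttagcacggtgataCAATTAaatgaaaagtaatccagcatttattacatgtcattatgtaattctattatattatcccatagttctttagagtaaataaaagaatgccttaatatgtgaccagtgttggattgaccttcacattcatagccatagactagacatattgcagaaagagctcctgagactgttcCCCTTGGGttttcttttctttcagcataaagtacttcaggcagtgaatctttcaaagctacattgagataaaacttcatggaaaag
The windows of Olfr1196 and Olfr1197 align at 90.6% identity once an offset of 67 bases between their annotated starts is allowed, while in the other 8 divided pairs the same comparison gave 54.9 to 59.6%. Both carry CAATTA and an Ebf core in the same order. Each comparison took the best fit within 500 bases of the other start, and no unrelated windows were compared, so the lower values have no baseline. Some annotated starts are coding starts: Olfr1095 is 927 bases long with 924 coding bases, and GENCODE gives 2 or more exons for 200 of the 226 members.

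Over the stretch, 139 of the 226 start windows held TAATTA or TAATTG (61.5%), against 416 of 909 windows of other receptors (45.8%) and 2647 of 21748 windows of all protein-coding genes (12.2%). The Ebf core CCCNNGGG was found in 22 windows of the stretch (9.73%), 153 of other receptors (16.8%) and 15.9% of all. Both motifs were present together in 4.87%, 6.49% and 1.26%. The median GC content of the windows was 33.3% in the stretch, 38.7% in other receptors and 55.0% in all protein-coding genes, so the share with TAATTA or TAATTG was higher where GC content was lower, while the shares with the Ebf core and with both motifs did not follow the order of GC content. The part of base composition in these counts was not tested.

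Set beside the other places of the genome, the stretch was sparse in boundaries and more so in Strong ones. Its 1.81 boundaries per Mb compare with 3.12 on the rest of chromosome 2, 2.91 over the full list and 2.46 in the other receptor clusters together, where 40.3% of 62 boundaries were Strong (exact 95% interval 28.1 to 53.6%) and the median score was 0.400. Consecutive windows of the same length over the genome, those that overlap the stretch included, held a median of 14 boundaries (0 to 28). Of 504 such windows, 43 had 9 or fewer, 29 had at most 1 Strong boundary and 32 had a median score at or under that of the stretch. Of the 36 windows on chromosome 2, 2 had 9 or fewer boundaries and none had fewer than 2 Strong ones.

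Among 33 receptor clusters, runs of at least 5 receptor genes with gaps of at most 500 kb, the stretch ranked 16 from the lowest in boundaries per Mb (0 to 7.54, median 2.10), so its density is near the middle for receptor clusters. Olfr1274-ps, which the rule leaves outside, was left out of the stretch here as well. Among the 24 clusters with a boundary, its highest score of 0.620 ranked 17 from the top; the other 9 clusters hold none. It came second in the number of receptors in 1 sub-interval, 48 against 53 in the cluster of 95 genes on chromosome 9, and ranked 3 from the top in the length of its longest sub-interval, 1065 kb against 1340 kb on chromosome 9 and 1105 kb on chromosome 11. Its GC content was the second lowest of the 33. Clusters with more length held more boundaries (Pearson r = 0.835, Spearman rho = 0.669 over 33 clusters, as a description).

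The chromosome 7 cluster, the next largest with 129 genes, held 11 boundaries or 3.80 per Mb, of which 2 were Strong. Its median score of 0.279 was close to the 0.280 of the chromosome 2 stretch, but its highest reached 2.67. The chromosome 9 cluster held 4 boundaries, 1.61 per Mb, with 2 Strong, a median of 0.469 and a highest score of 2.74. Of these 3 clusters the chromosome 2 stretch has the lowest top score, 0.620, although it is the longest. Next in gene number, the median score was 0.507 on chromosome 19 (3 of 6 boundaries Strong) and 0.369 on chromosome 10 (0 of 2). It was 0.270 on chromosome 17 (1 of 5) and 0.251 in another chromosome 7 cluster, of 42 genes (1 of 4). Clusters of 39 genes on chromosome 2 and 37 on chromosome 9 had 0.311 (0 of 1) and 0.258 (1 of 6). Median scores as low as that of the stretch were thus found in other receptor clusters too.

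**Figure D5:**
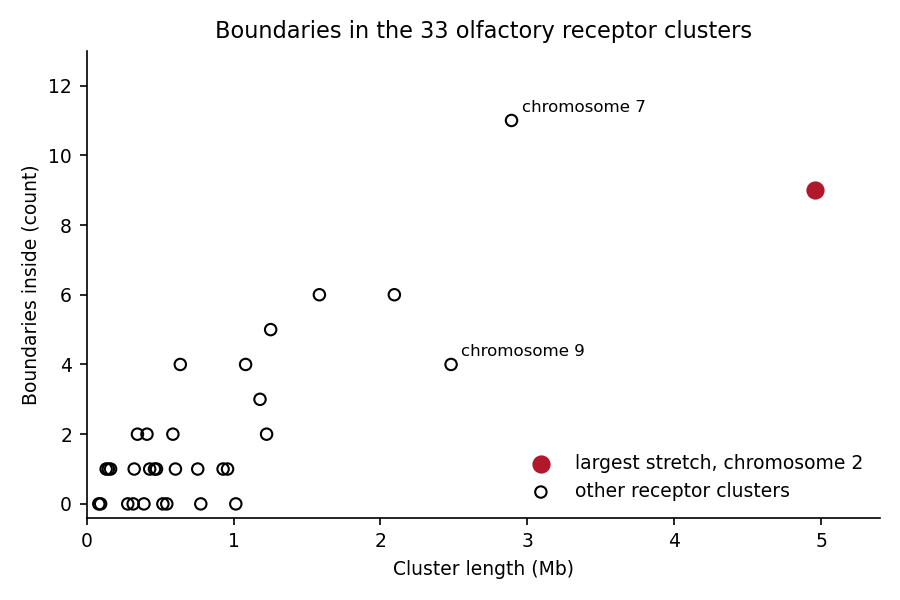
Boundaries in each of the 33 receptor clusters against cluster length (Mb), 1 point a cluster, with the chromosome 2 stretch in red. The stretch is the longest at 4.96 Mb and holds 9 boundaries, the chromosome 7 cluster holds 11 and the chromosome 9 cluster 4.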

How the data were processed

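The authors called boundaries on a GRCm38 contact matrix made from both biological replicates combined, per the series design text, and the submitters' processing notes also name that build. The deposited list gives each boundary 5 kb, a class and a strength score, which is the score of the authors' caller and is used only to describe and rank boundaries within the list. The sources used here do not give the caller, its window, the score's formula, the aligner or the depth. Contact lists, matrices, insulation tracks and compartment tracks were not analysed here.

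Genes came from GENCODE M21 and sequence from the RefSeq copy of GRCm38. Every boundary lay within its chromosome's length. Gene starts are the 5′ ends of genes, positions are 1-based, and a start was near a boundary when within 10 kb of its interval. Sub-intervals run between facing edges of adjacent boundaries, and genes were placed in them by their start relative to boundary midpoints. All 226 members matched a RefSeq gene. Protein identity had been planned; coding-sequence identity (edlib 1.3.9.post1, global alignment) was used in its place. Motifs were searched on both strands. Unique sequence was the share of 50-base words, sampled every 50 bases locally and every 2000 bases elsewhere, that occur once on either strand of the genome; the word search was tested on simulated data. Shares have exact Clopper-Pearson 95% intervals (scipy 1.17.1). With 1 pooled list there are no replicate values and no p-values.

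Genes were named by rule: the ends of the stretch, the receptors beside each boundary inside it, the coding genes there that are no receptors, the coding gene nearest to each flanking boundary, the 5 receptors nearest to and farthest from a boundary, and the 3 most and least alike divided pairs. Gm13719, Gm13769, Olfr1034 and Olfr1036 fall outside it and were chosen after their values were seen. The members and lists were chosen with earlier results of these data known. Alternatives tried were Strong boundaries alone, other distances, gene bodies, pseudogenes, coding starts and other limits of the stretch.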

Additional observations from a re-analysis of the deposited data

How the results depend on the processing

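With Strong boundaries alone, 1 boundary lies inside the stretch, which then has 2 sub-intervals, the fuller one with 152 receptors; 1 receptor starts within 10 kb of a boundary, the median distance is 728.5 kb, and the 1 divided pair is 64.5% identical. No receptor start (0) lies inside a boundary interval, and 17 lie within 25 kb. The median distance was 129.3 kb with receptor pseudogenes, 138.2 kb by coding start and 133.3 kb with the 3 receptors that RefSeq alone names, and divided pairs on the same strand had a median identity of 71.5%. The coding start, the RefSeq receptors and the Strong sub-intervals were chosen after seeing the data. Counts stayed within 1.5 times under the remaining settings, with 10 boundaries in the widened stretch, 8 in the core with gaps of at most 100 kb, and 1 boundary with a CTCF consensus match at each distance tried. No paired analysis was possible because the list pools both replicates, which also means that no replicate could be left out. Depth is unknown, and the small number of boundaries inside, 9, limits the precision of every share given for them.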

Other observations

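The longer Ebf palindrome, the core CCCNNGGG of the start windows with a T before it and an A after it, was searched on both strands over whole regions. It matched 51 places in the stretch (10.3 per Mb), 11 in the left flank (22.0 per Mb), 8 in the right flank (16 per Mb) and 3181 on chromosome 2 (17.5 per Mb). A match lay within 10 kb of 1 of the 9 boundaries inside (11.1%, exact 95% interval 0.281 to 48.2%), against 36.5% of all boundaries. The interval spans the share of all boundaries, so a difference is not detectable with 9 boundaries. GC content, given above for the same regions, was lowest in the stretch and highest in the left flank, as was this density, but the right flank had the higher GC content and the lower density when set against chromosome 2. The part of GC content in these densities was not tested.

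Gm13769, named Olfr1565 in RefSeq, starts at 90322200, just past the end that the rule sets, in the tenth sub-interval. With it and Olfr1274-ps, receptor genes under either annotation run on into the 177.2 kb between the end of the stretch and the boundary at 90470001.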
